A study of Mus musculus with 24 samples.

Results

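Troponin and tropomyosin are the regulatory proteins of the thin filament, the actin strand that myosin pulls on. Calcium binds troponin C, which lifts the block that troponin I places on actin, and troponin T anchors the complex to tropomyosin, the coiled rod that lies along actin and covers its myosin-binding sites. Slow and fast fibers of skeletal muscle use different genes for most of these subunits, and the mouse quadriceps is made mostly of fast fibers. H3K27ac, the acetylation of lysine 27 of histone H3, marks active enhancers and promoters and was used here to ask which of these genes lay in active chromatin and whether weekly prednisone moved the balance between slow and fast isoforms.

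The 9 genes described were taken by name from 21000 protein-coding genes of the mouse RefSeq annotation. The slow genes were Tnnc1 (troponin C, shared with heart), Tnni1 (slow troponin I), Tnnt1 (slow troponin T) and Tpm3 (slow muscle tropomyosin and, from an internal start, short forms used outside muscle). The fast genes were Tnnc2, Tnni2, Tnnt3 and Tpm1, the last of which encodes the alpha tropomyosin of fast fibers and is also used in heart and other tissues. Tpm2, the beta tropomyosin of both fiber types, is given on its own. A peak was assigned to a gene when it touched by at least 1 bp the gene body or the stretch within 10 kb of any of its transcription starts, which is called the window of the gene. The windows of the slow genes added up to 101.2 kb and those of the fast genes to 103.8 kb.

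The mice were C57BL/6J males and females (C57BL/6 in the labels), 10 weeks of age at treatment onset. Weekly prednisone mice received 5 weekly i.p. injections of 1 mg/kg prednisone, a synthetic glucocorticoid, with DMSO vehicle on the days between, and vehicle mice received DMSO alone. Quadriceps were taken 4, 6 or 8 days after the last injection, digested with collagenase II and filtered, and H3K27ac ChIP was done on the myofibers with 2 libraries and 1 input library per group. Each of the 8 groups (vehicle and days 4, 6 and 8 in each sex) is given as 1 peak list, with no values per library, so differences between groups are given without replicate error and without a test.

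The lists differed in depth, from 7.52 megatags (M) at male day 4 to 50.5 M at male day 6, and in the share of tags that fell in peaks, from 5.39% at male day 6 to 47.3% at female day 6. They held 38861, 67503, 123249 and 81696 peaks for female vehicle and days 4, 6 and 8, and 87600, 17482, 32188 and 20499 for the male lists in the same order. Tag levels are therefore read within a list, as the rank of a gene among all genes or as a share, and not from list to list. Of 8 myofiber marker genes (Acta1, Ckm, Myh4, Mylpf, Atp2a1, Ttn, Des and Mb), a peak lay over the start of 2, 8, 7 and 8 in the female lists and of 6, 2, 5 and 5 in the male lists. Over all genes a peak lay over a start for 15.1%, 45.9%, 62.6% and 56.2% in the female lists and 39.9%, 20.4%, 20.2% and 25.9% in the male lists. Markers of other cells were not absent: of 4 endothelial markers (Pecam1, Cdh5, Kdr and Tie1) the start carried a peak in 0, 4, 4 and 4 in females and 4, 0, 1 and 0 in males. The endothelial numbers were highest in the lists where the share over all genes was highest, and cell content is not read from them. Of 4 immune markers Ptprc and Csf1r had a start peak in 0 of 8 lists, Cd3e in 1 and Cd68 in 3, and Cd68 stood at percentiles 94.4 to 98.9 of all genes by tags per kb. The satellite cell genes Pax7 and Myf5 had a start peak in 0 and 1 lists and the adipocyte genes Adipoq and Plin1 in 0 and 1. Fewer slow fibers and less acetylation per slow fiber cannot be told apart in these bulk samples.

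H3K27ac peaks lay over the most upstream starts of the fast genes far more often than over those of the slow genes. In Tpm1 and Tpm3 this start gives the long muscle forms. A peak covered 28 of the 32 combinations of 4 fast genes and 8 lists and 2 of the 32 combinations of the slow genes, beside 34% of all combinations of genes and lists. The 2 were Tnnt1 at female day 6 and the long form of Tpm3 in male vehicle. With any start of the gene the slow genes had 8 of 32 and the fast genes 28 (35.8% over all genes), and with a peak within 1 kb of a start 18 and 32 (46.3%). The sequences just before these starts are shown so that acetylated and bare starts can be compared. They are the 250 bases upstream of each start, 5′ to 3′ on the strand of the gene, from the RefSeq promoters of GRCm38.p6 (mm10), and that table held 7 of the 9 genes (not Tnni2 and Tnnt3). Capitals mark matches, on either strand, to CATTCC (the MCAT motif of muscle promoters), TATAAA (a form of the TATA box) or CAGCTG (an E-box of the kind bound by myogenic factors). In the labels, acetylated or bare refers to a peak over the start itself, the base after the last one shown. Such a peak need not cover all 250 bases.
Tnnc1, bare in all 8 lists, chr14:31208062-31208311, plus strand: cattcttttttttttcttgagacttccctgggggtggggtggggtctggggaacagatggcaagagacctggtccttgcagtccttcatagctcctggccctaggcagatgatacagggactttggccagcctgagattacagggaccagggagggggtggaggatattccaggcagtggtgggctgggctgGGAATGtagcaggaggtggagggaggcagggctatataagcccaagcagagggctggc
Tnnt1, acetylated in 1 list, chr7:4515976-4516225, minus strand: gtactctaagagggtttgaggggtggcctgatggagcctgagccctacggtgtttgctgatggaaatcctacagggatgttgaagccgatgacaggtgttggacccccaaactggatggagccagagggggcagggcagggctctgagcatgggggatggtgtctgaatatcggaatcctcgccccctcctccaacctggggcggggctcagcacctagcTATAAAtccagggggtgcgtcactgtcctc
Tpm3 long form, acetylated in 1 list, chr3:90072401-90072650, plus strand: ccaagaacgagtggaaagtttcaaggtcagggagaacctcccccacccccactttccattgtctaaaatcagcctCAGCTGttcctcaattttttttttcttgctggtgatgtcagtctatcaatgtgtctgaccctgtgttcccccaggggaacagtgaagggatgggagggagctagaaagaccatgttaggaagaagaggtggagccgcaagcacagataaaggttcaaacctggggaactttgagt
Tpm3 internal start, acetylated in 6 lists, chr3:90079271-90079520, plus strand: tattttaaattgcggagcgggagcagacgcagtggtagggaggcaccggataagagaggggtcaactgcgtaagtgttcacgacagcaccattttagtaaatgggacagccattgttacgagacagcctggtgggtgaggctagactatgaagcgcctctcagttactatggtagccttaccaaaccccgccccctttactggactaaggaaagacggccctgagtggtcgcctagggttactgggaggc
Tnnc2, acetylated in 7 lists, chr2:164779735-164779984, minus strand: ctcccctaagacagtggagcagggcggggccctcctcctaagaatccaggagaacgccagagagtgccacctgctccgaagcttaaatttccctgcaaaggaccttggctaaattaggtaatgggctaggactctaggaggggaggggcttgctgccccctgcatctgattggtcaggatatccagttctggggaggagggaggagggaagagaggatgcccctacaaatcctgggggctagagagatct
Tpm1, acetylated in 8 lists, chr9:67049214-67049463, minus strand: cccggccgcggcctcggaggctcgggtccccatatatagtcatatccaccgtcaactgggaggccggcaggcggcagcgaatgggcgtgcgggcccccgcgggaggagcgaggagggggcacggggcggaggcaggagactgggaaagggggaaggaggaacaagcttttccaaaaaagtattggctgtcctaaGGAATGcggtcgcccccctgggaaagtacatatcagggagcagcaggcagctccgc
The Tnnc1 promoter held 0 CpG sites, that of the long form of Tpm3 held 2, those of Tnni1 and Tnnt1 held 5 and 6, and the median of all 20484 promoters was 10. Among the starts acetylated in at least 6 lists, the promoters of Tpm1 and Tpm2 had 19 and 17 CpG sites and the internal Tpm3 promoter 11, whereas Tnnc2 had 3. An MCAT match lay at nearly the same place in Tnnc1, from -58 to -53, and in Tpm1, from -56 to -51, although the former start was bare and the latter acetylated in every list. Such a match was found in 11.5% of all promoters. The exact letters TATAAA were found at -30 to -25 of Tnnt1 (11.5% of all promoters), and other forms of the TATA box were not searched for. The E-box CAGCTG was found in the promoters of Tnni1, Tpm2 and the long form of Tpm3 (12.3%). The consensus of the glucocorticoid receptor (GR), ACANNNTGT, and a strict form of that of MEF2 (CTA, 4 bases of A or T, TAG) had 0 matches in these promoters. They were found in 5.2% and 0.459% of all promoters.

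**Figure D1:**
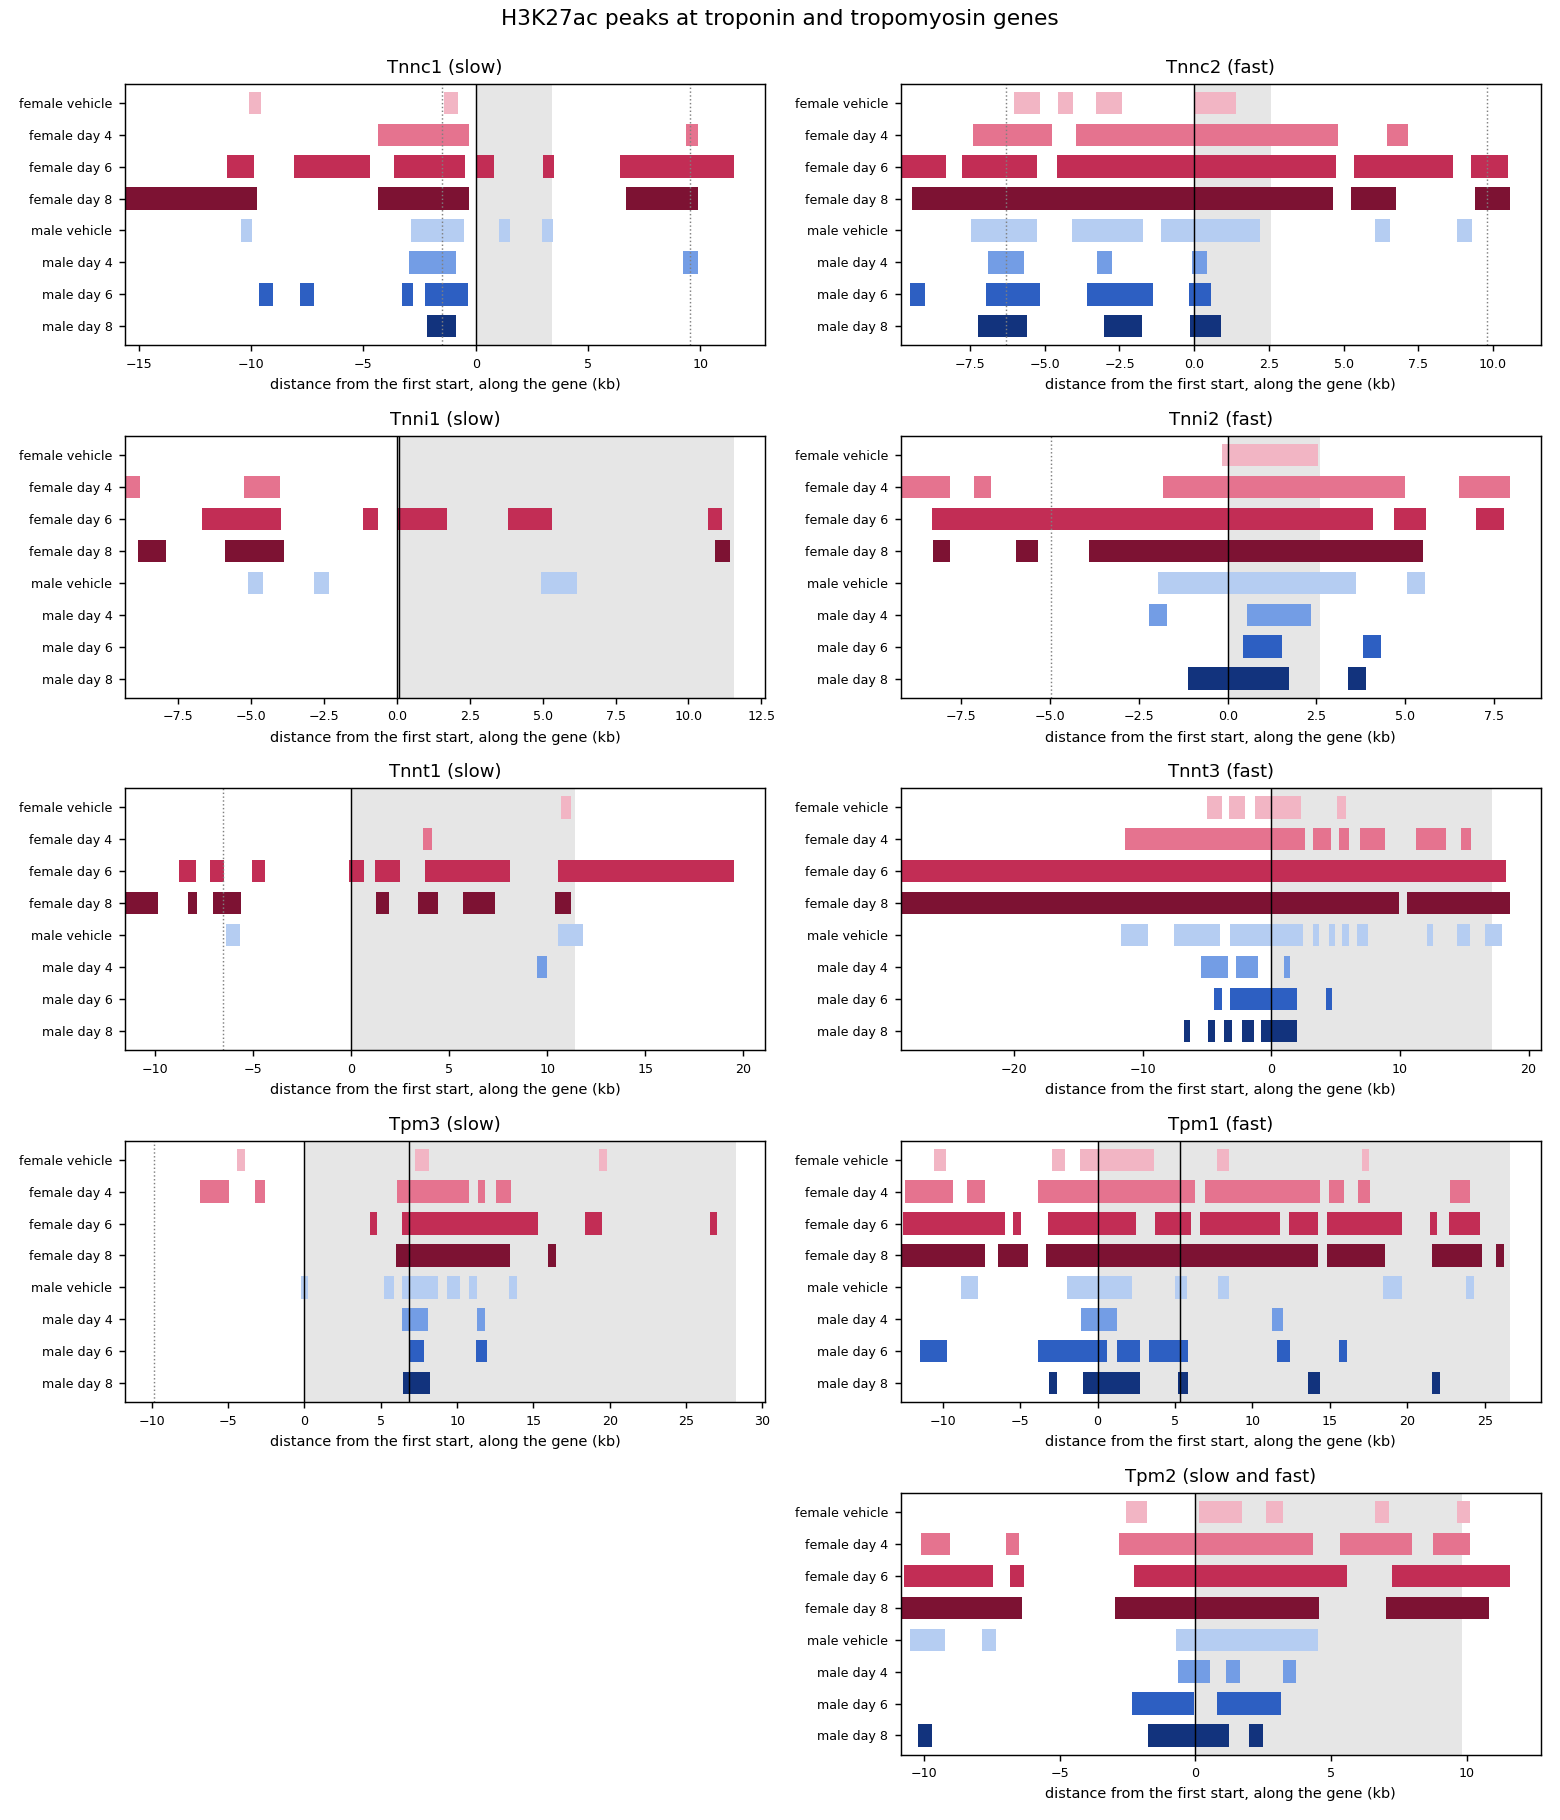
H3K27ac peaks (colored bars) in the 8 lists, 1 row per list, by distance in kb from the first start along the gene. Gray shading is the gene body, solid lines are starts of the gene and dotted lines are starts of neighboring genes. Fast genes (right) carry peaks over the start in nearly all lists, whereas slow genes (left) carry peaks mostly away from the first start.

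Troponin C, the calcium sensor, showed the contrast between start and surroundings most plainly. Tnnc2 (chr2:164777161-164779734, minus strand) had a peak over its start in 7 of 8 lists, and in female vehicle the nearest peak began 0.044 kb inside the gene. The 8 lists shared 393 bp of Tnnc2 from +0.044 to +0.436 kb, mostly intron, and 2 upstream stretches of 270 and 335 bp at -3.02 and -6.02 kb, the latter just before the start of Snx21 at -6.29 kb. Tnnc1 (chr14:31208312-31211729, plus strand) had no peak over its start in any list, as had 33.6% of all genes, but a peak 0.048 to 0.885 kb away in each. In 7 of the 8 lists that nearest peak lay upstream, in a region from -4.35 to -0.299 kb that was acetylated in all 8 lists and holds the start of the neighboring gene Nisch at -1.49 kb. The Nisch start itself had a peak in 7 lists, all but female vehicle. The part of the region that all 8 lists share was 540 bp long, from -1.42 to -0.885 kb, between the starts of Tnnc1 and Nisch and inside neither gene. Its central 300 bases are shown because no other stretch outside a gene near a slow gene was acetylated in every group. Capitals mark the MCAT motif at bases 52 to 57.
Tnnc1 upstream core, mm10 chr14:31207008-31207307, plus strand: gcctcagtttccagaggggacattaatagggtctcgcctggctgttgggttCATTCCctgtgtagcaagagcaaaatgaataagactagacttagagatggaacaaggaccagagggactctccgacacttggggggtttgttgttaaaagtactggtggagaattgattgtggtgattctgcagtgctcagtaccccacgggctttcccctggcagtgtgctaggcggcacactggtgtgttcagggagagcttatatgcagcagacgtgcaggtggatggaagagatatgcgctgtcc
Over the 8 lists Tnnc1 stood at percentiles 85.8 to 98.1 of all genes by normalized tags per kb of window, and Tnnc2 at percentiles 95.7 to 99.1. At male day 4 Tnnc1 had 4.59 tags per kb and Tnnc2 3.92, the only list in which a slow gene was above its fast partner. Both Tnnc1 peaks of that list touched the start of a neighbor, Nisch or Sema3g at +9.56 kb. Within the Tnnc1 gene body peaks were found only at female day 6 and in male vehicle.

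Troponin I, the inhibitory subunit, had a slow gene with no peak in 4 of the 8 lists. Tnni1 (chr1:135799421-135810989, plus strand) had no peak in its window in female vehicle or in males at days 4, 6 and 8, and in these lists the nearest peak was 21.7 to 29 kb from its first start. In the other 4 lists it held 2, 5 and 3 peaks in females at days 4, 6 and 8 and 3 in male vehicle. Only the female day 6 list reached a start, with a peak of 1.72 kb and 24.8 normalized tags over the second start, 90 bp downstream of the first. A region from -6.69 to -3.86 kb was its most frequent, in 3 female lists and male vehicle. Tnni2 (chr7:142441816-142444410, plus strand) had a peak in every list and over its start in 6. At male days 4 and 6 the nearest peak began 0.555 and 0.445 kb inside the gene. The bases shared by all 8 lists formed a stretch of 986 bp from +0.555 to +1.54 kb, of which 853 bp were intron and 133 bp exon. Tnni2 stood at percentiles 92.1 to 98.6, and Tnni1 at 60.9 to 74.9 where it had a peak.

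Troponin T, the tropomyosin-binding subunit, held the longest domain. Tnnt3 (chr7:142498836-142516009, plus strand) had a start peak in 7 lists, and at male day 4 the nearest peak began 0.991 kb downstream. At female day 6 a peak of 47.0 kb with 2241 normalized tags, the 20th of 123249 peaks by tags, covered 100% of its window and ran to -28.8 kb, over internal starts of the neighboring gene Lsp1. At female day 8 the start peak was 38.7 kb long and 17th of 81696. The start peak was shorter in the other female lists, 3.57 kb in vehicle and 14 kb at day 4, and it was 5.68, 5.25 and 2.79 kb in male vehicle and at male days 6 and 8. All 8 lists had 3 stretches in common, of 106 bp at -4.49 kb, 225 bp at -2.26 kb and 501 bp at +0.991 kb. The first lies in the 3′ end of Lsp1 and the last in an intron of Tnnt3. Tnnt3 ranked from percentile 97.6 to 99.8, and its median of 99.5 was the highest of the 9 genes.

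Tnnt1 (chr7:4504570-4515975, minus strand) had no peak at male days 6 and 8 1 each in female vehicle, female day 4 and male day 4, and 2 in male vehicle. It held 7 peaks at female day 6 and 7 at female day 8. A start peak was called only at female day 6, where it was 0.761 kb long with 15.3 normalized tags and ranked 49833rd of that list. The strongest Tnnt1 peak of that list, with 421.6 tags, lay from +10.5 to +19.5 kb, beyond the 3′ end of the gene for most of its length and over the start of Ppp1r12c. The window also holds the start of Tnni3, the cardiac troponin I gene, at -6.55 kb, and that start had a peak in 2 lists, both female. Tnnt1 ranked from percentile 24.2 at male day 6, the tied rank of all genes with no peak in that list, to 93.6 at female day 6, where most of its tags came from that strongest peak.

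Tropomyosin differed from troponin in that a stretch inside the slow gene, near its internal start, was acetylated in all 8 lists. Tpm3 (chr3:90072651-90100902, plus strand) had a peak over the start of its long form only in male vehicle, 0.5 kb long. Its internal start, 6870 bp downstream, had a peak in 6 lists, and in the other 2, female vehicle and male day 6, the nearest peak was 0.385 and 0.045 kb away. A region from +5.99 to +15.3 kb was acetylated in all 8 lists, with a shared stretch of 559 bp at +7.26 to +7.81 kb, in an intron of the long form. The short forms transcribed from this start are those known from non-muscle cells, and the forms cannot be told apart by peaks downstream of it. Tpm3 ranked from percentile 83.3 to 92.2. Tpm1 (chr9:67022593-67049213, minus strand) was the only gene of the 9 with a peak over its first start in all 8 lists, and 6.78% of all genes had a start peak in every list. The stretch common to the lists was 1559 bp long and ran from -0.968 to +0.59 kb, across the start. Its internal start, at +5342 bp, had a peak in 6 lists, not in female vehicle or at male day 4. Tpm2 (chr4:43513726-43523554, minus strand), used by slow and fast fibers, followed the fast genes: it had a start peak in 6 lists, missed the start by 0.133 kb in female vehicle and by 0.04 kb at male day 6, and ranked from percentile 96.2 to 99.

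**Figure D2:**
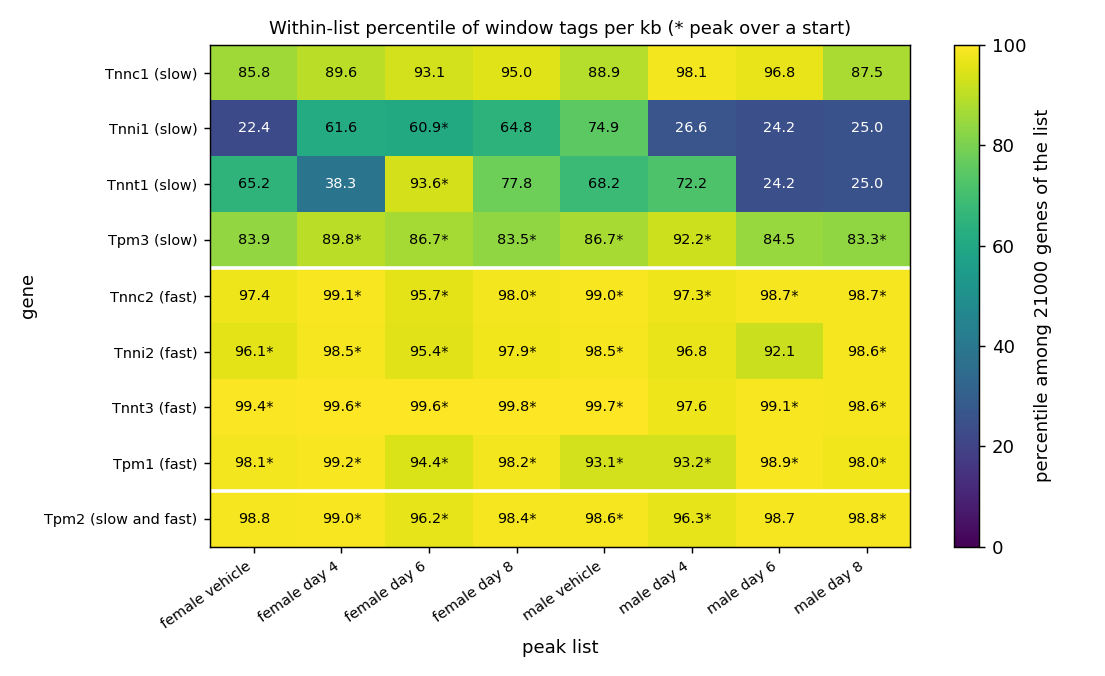
Rank of each gene (rows) among 21000 protein-coding genes in each list (columns), as the percentile of normalized H3K27ac tags per kb of window, with an asterisk where a peak lay over any start of the gene. The 4 fast genes and Tpm2 stood at or above percentile 92.1 in every list, and Tnni1 and Tnnt1 ranged from 22.4 to 93.6.

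In vehicle, 3 of 4 fast genes and 0 of 4 slow genes had a peak over any start in females, where 15.1% of all genes did. In male vehicle 4 of 4 fast and 1 of 4 slow genes did, beside 39.9% of all genes. After prednisone 4, 4 and 4 fast genes had a start peak in females at days 4, 6 and 8 and 2, 3 and 4 in males. For the slow genes the numbers were 1, 3 and 1 in females and 1, 0 and 1 in males. The background over all genes was 45.9%, 62.6% and 56.2% in the female lists and 20.4%, 20.2% and 25.9% in the male lists. The proportion of slow genes was near the background or below it, and furthest above it at female day 6, with 3 of 4 genes beside 62.6%. With 4 genes nothing is read from that difference. The proportion of fast genes was above the background in all 8 lists. Allowing a peak within 1 kb of a start, all 4 fast genes qualified in every list and 2 of 4 slow genes in every list but female day 6, where 4 did. The 2 were Tnnc1, through the upstream region that holds the Nisch start, and Tpm3, through its internal start. The background by that rule was 29.4%, 54.2%, 69.9% and 62.5% in the female lists and 54.8%, 31.8%, 32% and 35.4% in the male lists. A peak anywhere in the window was found in every list for 7 of the 9 genes (the 4 fast genes, Tpm2, Tnnc1 and Tpm3), and for 29.6% of all genes. For the slow genes it was found for 3, 4, 4 and 4 in females and 4, 3, 2 and 2 in males. Of all genes, 55.3%, 72.8%, 80.2% and 75% had a window peak in the female lists and 76.9%, 46.9%, 51.5% and 50% in the male lists.

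Tags per kb of window were higher for the fast gene than for its slow partner in 31 of 32 comparisons of pair and list. Normalized tags are scaled to 10 M tags of the list. For troponin T the Tnnt3 and Tnnt1 levels were 5.32 and 0.373 tags per kb in female vehicle, 15.1 and 0.248 at female day 4, 82.5 and 26.9 at female day 6 and 57.0 and 5.16 at female day 8. These values count all tags of a peak that touches the window, and most Tnnt1 tags at female day 6 came from the peak of 421.6 tags that lies largely outside it. With tags clipped to the window, an alternative chosen after seeing the data, Tnnt3 and Tnnt1 had 47.7 and 9.05 tags per kb at female day 6 and 31.4 and 4 at female day 8, and the fast gene was higher in 31 of 32 comparisons as before. In males, with all tags of a touching peak counted, Tnnt3 and Tnnt1 had 17.9 and 2.08 tags per kb in vehicle, and 4.16 and 0.621 at day 4. At male days 6 and 8 Tnnt3 had 4.95 and 3.9 tags per kb and Tnnt1 had no peak listed. For tropomyosin the gap was narrower than for troponin T, with Tpm3 at 0.97 and Tpm1 at 3.48 tags per kb in female vehicle and at 2.23 and 2.4 at male day 4. The gap of troponin C was similar or smaller in most lists, as with Tnnc1 at 1.07 and Tnnc2 at 3.02 in female vehicle. It was wider in male vehicle, with Tnnc1 at 4.89 and Tnnc2 at 13.4 beside Tpm3 at 4.37 and Tpm1 at 6.38.

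**Figure D3:**
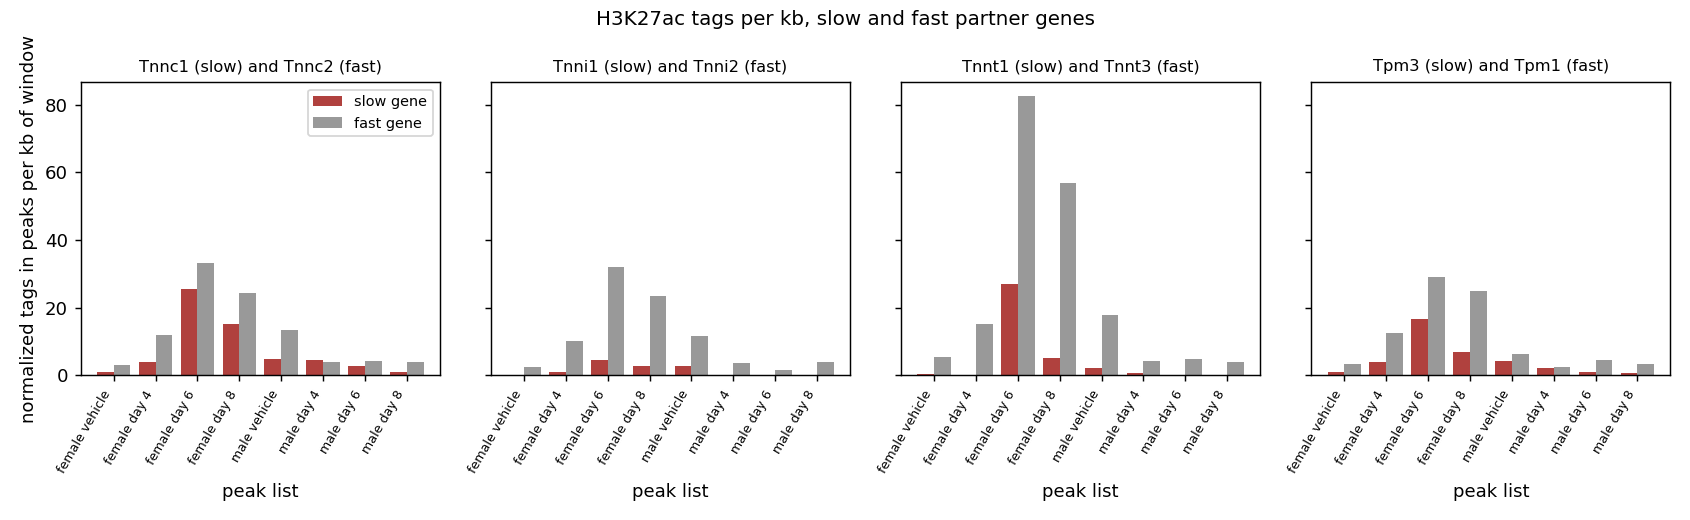
Normalized H3K27ac tags in peaks per kb of window for each slow gene (red) and its fast partner (gray) in the 8 lists. Levels are to be compared within a list, since depth and the share of tags in peaks differ between lists. The fast gene was higher in 31 of 32 comparisons and the exception was Tnnc1 at male day 4.

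The slow share is the tags of the 4 slow windows as a percentage of the tags of the slow and fast windows of the same list. It was 14.8% in female vehicle (exact binomial 95% interval of the tags, 12.9 to 16.9%), 16.2% at female day 4 (15.3 to 17%), 28.3% at female day 6 (27.7 to 29%) and 17.8% at female day 8 (17.2 to 18.3%). With the gene body alone the female values were 12.6%, 10.3%, 23.2% and 9.46%, and with a 2 kb window 15.9%, 15.1%, 27.4% and 13.5%, so the order of vehicle against days 4 and 8 turned and that of day 6 did not. In males the share was 23.1% in vehicle (21.9 to 24.2%), 35% at day 4 (30.4 to 39.9%), 18.4% at day 6 (16.9 to 19.9%) and 12.3% at day 8 (10.7 to 14.2%). The female share was highest at day 6 and the male share at day 4, and it was under 50% in all 8 lists. The intervals cover counting error only, and whether the lists differ beyond the spread between animals was not tested. The male day 4 value rests on 408 tags. Female day 6 and male day 4 were also the 2 lists in which the input was scaled to the H3K27ac libraries and not the reverse, and the part of this in their higher share was not tested. When each peak was counted only for the protein-coding gene with the nearest start, the shares were 7.76%, 11.5%, 16.6% and 9.74% in females and 18.1%, 21.8%, 9.14% and 8.63% in males, so neighboring starts such as those of Nisch and Ppp1r12c carried part of the slow tags. By this count all slow tags in female vehicle and at male days 4, 6 and 8 came from Tpm3 and none from a slow troponin gene. At those male days the nearest start was the internal one of Tpm3, whose short forms are known from non-muscle cells. In the main count at male day 4, Tpm3 gave 85.2 and Tnnc1 91.8 of the 190.3 slow tags.

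**Figure D4:**
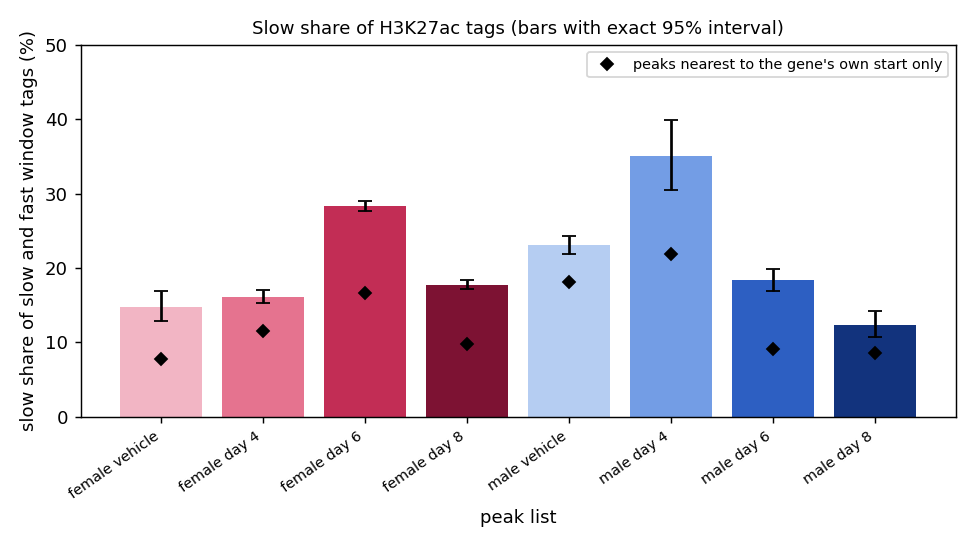
Slow share of the H3K27ac tags in the slow and fast windows (bars, percent) in each list, with exact binomial 95% intervals of the tags. Diamonds give the share when each peak counts only for the gene with the nearest start. The share was highest at female day 6 (28.3%) and male day 4 (35%) and lower in every list by the nearest-start count.

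Peaks in the slow windows numbered 6, 10, 22 and 15 in the female lists and 15, 5, 6 and 2 in the male lists, from vehicle to day 8. For the fast windows the numbers were 14, 20, 18 and 14 in females and 23, 10, 15 and 15 in males. In each sex the slow number was highest in the longest list, female day 6 and male vehicle. Per 10000 peaks of the list the slow windows held 1.54, 1.48, 1.79 and 1.84 peaks in females and 1.71, 2.86, 1.86 and 0.976 in males. The fast windows held 3.6, 2.96, 1.46 and 1.71 in females and 2.63, 5.72, 4.66 and 7.32 in males. At female days 6 and 8 the fast peaks were fewer and longer than at day 4, up to 47.0 kb. A median of 18.8%, 61.1%, 80.5% and 81.1% of a fast window was covered by peaks in the female lists and 37.5%, 11.3%, 25% and 18.2% in the male lists. For the slow windows the medians were 3.68%, 15.3%, 37.9% and 24.9% in females and 12.1%, 4%, 2.03% and 2.32% in males. The median over all genes was 0.701%, 3.73%, 8.73% and 5.81% in females and 3.95%, 0%, 0.337% and 0.0429% in males, below the slow and the fast median in every list. Whether pull-down or the number of non-muscle cells had a part in the longer domains was not tested.

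Acetylated bases of the fast windows were shared between lists more often than those of the slow windows. Of 95074 fast bases that lay in a peak of any list, 12.4% were in 1 list alone and 4.6% in all 8. Of 51673 such slow bases, 51.9% were in 1 list and 2.13% in all 8, and over the whole series the values were 60.1% and 0.825%. Slow bases lay only in female lists in 68.7%, only in male lists in 7.95% and in lists of both sexes in 23.3% of cases. For the fast windows these values were 49.7%, 0.486% and 49.9%, and over the whole series 63.9%, 15.1% and 21%. The slow windows were thus near the whole series in the shares of female lists only and of both sexes, and lower in that of male lists only. The fast windows had more bases common to both sexes. At Tpm2, of 16646 bases, 14.4% were in 1 list and 49% in lists of both sexes.

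The study asked which elements were present 4 days after the last weekly injection and absent in vehicle, and how long they lasted, and the same question was put to these genes. In females 21 of 35 day 4 peaks near the 9 genes did not overlap a vehicle peak (60%, exact 95% interval 42.1 to 76.1%), beside 81.9% of all female day 4 peaks. They comprised 8 of 10 slow peaks, 11 of 20 fast peaks and 2 of 5 at Tpm2. Of the 21 gained peaks, 18 overlapped a peak at day 6 and 17 at day 8, beside 50.3% and 43.6% of all gained female peaks. By group these were 5 and 6 of the 8 slow gains, 11 and 9 of the 11 fast gains, and both gains at Tpm2 on each day. Peaks of days 6 and 8 covered 82.6% and 80% of the fast window bases, so an overlap of 1 bp there does not show that a gain lasted. They covered 38.3% and 24.9% of the slow window bases. In males 3 of 18 day 4 peaks were gained (16.7%, 3.58 to 41.4%), at Tnnc1, Tnnt1 and Tpm1, beside 45.4% of all male day 4 peaks. Of these 3 the Tpm1 peak overlapped a peak at day 6 and 0 of 3 overlapped a peak at day 8, beside 5.84% and 5.01% of all gained male peaks. With every list shortened to 17482 peaks, 11 were gained in females and 10 in males. Male day 4 already had that number, so in males the cut removed only peaks of the vehicle list, which held 87600. What the difference in number between the sexes rested on was not tested. The male day 4 list had the lowest depth of the 8. The intervals of these peak shares treat peaks as independent, although several lie in the same window, and are no test against the background.

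Conversely, nearly all vehicle peaks of the fast genes in females overlapped a later peak. Of 14 fast vehicle peaks in females 13, 14 and 14 overlapped a peak at days 4, 6 and 8, and of 6 slow peaks 2, 5 and 4 did. Of all female vehicle peaks 36.6%, 39.6% and 41% were found again. Peaks of those days covered 62.3%, 82.6% and 80% of the fast window bases and 15.2%, 38.3% and 24.9% of the slow ones. Where most of a window is covered, an overlap of 1 bp does not show that the same element was kept. In males 7, 9 and 8 of 23 fast vehicle peaks and 3, 3 and 2 of 15 slow peaks were found again, beside 10.3%, 13.1% and 12.1% of all male vehicle peaks. The intervals of the slow shares were wide and held the background at every day in both sexes. They treat peaks of the same window as independent and are no test.

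**Figure D5:**
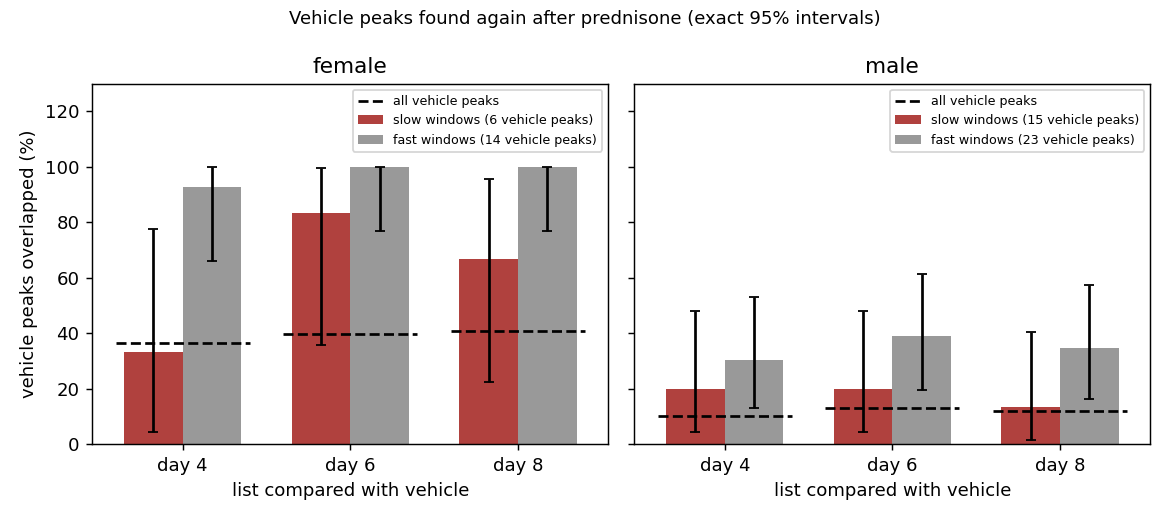
Percentage of vehicle peaks in slow (red) and fast (gray) windows that overlap a peak of the later list of the same sex, with exact binomial 95% intervals, and the percentage over all vehicle peaks (dashed lines). Fast vehicle peaks were found again in 13 or 14 of 14 cases in females and 7 to 9 of 23 in males.

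The GR consensus ACANNNTGT was as frequent around slow as around fast genes, with 28 matches in the slow windows (0.277 per kb) and 29 in the fast windows (0.279 per kb). Inside peaks, slow matches numbered 0, 5, 12 and 9 in the female lists and 3, 2, 1 and 1 in the male lists. For the fast windows they numbered 3, 18, 17 and 18 in females and 8, 1, 8 and 3 in males. Peaks covered 3.45%, 15.2%, 38.3% and 24.9% of the slow window bases in females and 12.3%, 5.38%, 5.16% and 3.01% in males. They covered 19.4%, 62.3%, 82.6% and 80% of the fast window bases in females and 36.1%, 11.4%, 22.5% and 18.1% in males. The counts of matches in peaks differed with the covered sequence, and nothing is read from them about the motif. No match lay in a peak in all 8 lists. The matches covered most often near Tnnc1, Tnnt3 and Tnni2 are shown with those near Tnnt1 and Tpm3 covered in the most lists, in capitals throughout, on the strand of the gene.
Tnnc1, 7 lists, mm10 chr14:31206563-31206571, at -1.75 kb and upstream of the gene: ACACCGTGT
Tnnt3, 7 lists, mm10 chr7:142500347-142500355, at +1.51 kb in an intron: ACAGAGTGT
Tnni2, 6 lists, mm10 chr7:142444021-142444029, at +2.21 kb in an exon: ACAAGGTGT
Tnnt1, 3 lists, mm10 chr7:4511837-4511845, at +4.13 kb in an intron: ACAGGCTGT
Tpm3, 4 lists, mm10 chr3:90081264-90081272, at +8.61 kb in an intron: ACAGCTTGT
The Tnnc1 match was covered in 3 female and 4 male lists and the Tnnt3 match in 4 female and 3 male lists. The Tnnc1 match lies beyond the Nisch start (-1.49 kb), downstream of it on the strand of Nisch. The 7 lists that cover this match are those with a peak over the Nisch start. The Tnnt1 match was covered at female days 4, 6 and 8 and in no vehicle or male list. A match to these letters is a description and does not show that the receptor bound there.

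Fast partners of these genes had start peaks more often than slow partners, and the groups were close at female day 6. Of 6 fast partners (Myh4, Mylpf, Myl1, Atp2a1, Casq1 and Pvalb, which encode fast myosin chains, the calcium pump, a calcium store protein and parvalbumin), 3, 6, 5 and 6 had a start peak in the female lists and 5, 3, 3 and 5 in the male lists. Of 5 slow partners (Myh7, Myl2, Myl3, Atp2a2 and Casq2) 0, 0, 4 and 2 did in females and 0 in each male list. At female day 6, the list with most peaks, 4 of 5 slow and 5 of 6 fast partners had a start peak, where 62.6% of all genes did. The backgrounds of the lists over all genes, from 15.1% in female vehicle to 62.6%, are those given above for the start peaks. Of 10 other thin filament genes 5, 7, 10 and 9 had a start peak in females and 7, 2, 5 and 3 in males. Among these, Tmod1 (a cap of the filament's pointed end), Cfl2 (muscle cofilin) and Klhl40 and Klhl41 (stabilizers of thin filament proteins) had a start peak in 7 lists each, Acta1 (skeletal actin) in 5 and Neb (nebulin) in 1. Actc1, the cardiac actin gene, had a start peak in 2 lists.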

How the data were processed

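H3K27ac ChIP-Seq of isolated quadriceps myofibers was given as 8 peak lists, 1 per group, from 16 H3K27ac and 8 input libraries. According to the study's methods the authors removed adaptors with homerTools, mapped the reads to mm10 using Bowtie2 (2.2.6 in the submitters' processing notes, which also name TopHat2 2.1.0) and called peaks with HOMER findPeaks in histone style at a fold over input of at least 2. The step that joined the replicate libraries into 1 list is not given in the sources used here. The normalized tag count is a signal the authors deposited per 10 M tags. The deposited fold over input (a ratio), the deposited findPeaks score and the deposited input tags, also a signal, were used as given. The deposited p-value and clonal fold columns were not used. Columns of samples left unused numbered 0.

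Depth came from the tag counts the authors deposited unscaled in 2 lists (female day 6 and male day 4) and from the step between low normalized values in the other 6. Within 0.006 normalized tags, 100% of values under 10 were whole multiples of 1 tag. Starts and gene bodies came from 37867 curated RefSeq transcripts (GRCm38.p6) of 21000 protein-coding genes. A peak touching 2 windows counted for both. Each list ranks all genes by tags per kb of window. Peaks were called shared at an overlap of 1 bp. Intervals are exact (Clopper-Pearson) at 95% and cover counting error only. Those of peak shares treat peaks as independent, although several lie in the same window. No test was made, since there are no values per library.

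Members and lists were chosen with earlier results of these data known. The genes named are the 9 members, 3 relatives, 10 thin filament genes, the fast and slow partners, cell type markers, neighbors that share a peak, and the 5 genes closest in rank to the slow and to the fast median. The GR matches shown were chosen after their values were seen. The shares of all genes with a start peak, given above for each list, are the background for the marker counts that follow. Markers of fibroblasts (Pdgfra, Col1a1, Dcn and Lum) had a start peak for 1, 2, 3 and 3 of 4 genes in females and 0, 1, 0 and 0 in males, immune markers (Ptprc, Cd68, Csf1r and Cd3e) for 0, 1, 1 and 1 of 4 and 1, 0, 0 and 0, satellite cell markers (Pax7 and Myf5) for 0, 0, 1 and 0 of 2 and 0 in each male list, smooth muscle markers (Myh11 and Cnn1) for 0, 0, 2 and 1 of 2 and 1, 0, 0 and 0, and adipocyte markers (Adipoq and Plin1) for 0, 0, 0 and 1 of 2 and 0 in each male list.

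Alternatives were another window (2 kb, or gene body alone), a fold over input of at least 4, lists shortened to 17482 peaks, peaks counted for the nearest gene only, and 50% overlap. On simulated peaks, 200 of 200 window counts, 200 of 200 start calls and 507 of 507 overlaps came back as planted, as did 10 of 10 depths and 60 of 60 motifs. The tools were scipy 1.17.1, pandas 2.3.3, numpy 2.4.6, matplotlib 3.10.9 and pysam 0.24.0 under Python 3.11.15.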

Additional observations from a re-analysis of the deposited data

Results flagged for a closer look

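The number of H3K27ac peaks in the slow windows moved in opposite directions in the sexes. In females the lists of days 4, 6 and 8 held 10, 22 and 15, all above the 6 of vehicle. In males the same days held 5, 6 and 2, all below the 15 of vehicle. The difference was not tested, since each group is 1 list. The totals of the lists moved the same way, from 38861 peaks in female vehicle to 67503, 123249 and 81696, and from 87600 in male vehicle to 17482, 32188 and 20499. Per 10000 peaks of the list the slow windows of the prednisone lists held 1.48 to 1.84 peaks in females, beside 1.54 in vehicle, and 0.976 to 2.86 in males, beside 1.71 in vehicle.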

How the results depend on the processing

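No paired analysis was possible because each group was given as 1 peak list with no values per library, and for the same reason no replicate could be left out. The number of the 9 genes with a window peak stayed within 1.5 times under all 48 alternatives, and the number with a start peak under 20 of 24. Within 1 kb of a start it became 7 in female vehicle, 7 at male day 4 and 7 at male day 6, and with lists of equal length 5 at female day 6. Gained day 4 peaks became 11 in females and 10 in males with equal length, and 5 in males when 50% of the peak had to be covered. The slow share kept its value within the interval under 22 of 64 alternatives and was under 50% in all of them. With a 2 kb window it was 15.9% in female vehicle and became 15.1%, 27.4% and 13.5% at female days 4, 6 and 8, and 25.2%, 41.3% and 15.4% in male vehicle and at male days 4 and 8. With the gene body alone it became 12.6%, 10.3%, 23.2% and 9.46% in the female lists and 11% at male day 6. At a fold over input of at least 4 it became 26.9% at female day 6 and 26% and 17.3% at male days 6 and 8. Equal length gave 11.5%, 21.6%, 29.6% and 15.4% in the female lists. The nearest-gene count gave 7.76%, 11.5%, 16.6% and 9.74% in females and 18.1%, 21.8%, 9.14% and 8.63% in males. The top peak alone gave 18.2%, 27.1% and 14.2% at female days 4, 6 and 8 and 25.4%, 20.8% and 17.1% in male vehicle and at male days 6 and 8. The troponin genes alone gave 10.4%, 10.8%, 25.1% and 15.9% in females and 16.8%, 28.4% and 7.77% in male vehicle and at male days 4 and 8. Tags clipped to the window, an alternative chosen after seeing the data, gave 17%, 27.6% and 19.1% at female days 4, 6 and 8. The cause of these moves was not tested. Depth limits the male day 4 list most, and a gene with no peak listed may carry acetylation under the caller's threshold.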

Other observations

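Among relatives of these genes, Tnnt2, the cardiac troponin T gene, had a start peak in 2 lists, as did Tnni3, the cardiac troponin I gene, and Tpm4, a non-muscle tropomyosin gene, had one in 5. Tpm4 had a window peak in all 8 lists and stood at percentiles 69.7 to 95.2, whereas Tnnt2 reached 56.9 and Tnni3 71.8. The genes whose rank over the 8 lists was closest to the median of the slow genes were Irak2, Pdgfrb, Gramd4, Spsb1 and Pomt1, with a mean absolute difference of 3.93 to 4.73 percentile points. Those closest to the fast median were Snx21, Vdac1, Orai1, Rcsd1 and Jph2, at 0.237 to 0.604 points. Snx21 starts 6.29 kb upstream of Tnnc2 and shares peaks with it. Orai1 encodes the pore of store-operated calcium entry, and Jph2 holds the membrane junctions where calcium is released.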
